A study of Mus musculus with 6 samples.

Results

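The genes of coagulation control and plasminogen activation described here were 9 of the 41721 genes in the table of counts: *Thbd*, *Procr*, *Tfpi*, *Tfpi2*, *F3*, *Plat*, *Plau*, *Plaur* and *Serpine2*. They were selected by gene symbol, and each symbol matched 1 row. *Thbd* was chosen by its measured difference between the genotypes in these same libraries, so its values are a description without a test. The other 8 genes were chosen by function, with earlier results of these libraries known.

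Mouse aortic smooth muscle cells (MASMCs) came from the abdominal aorta of mice aged 10 weeks, on a C57BL/6J background, and had been cultured for 4 to 8 passages and sequenced. In Pdk4fl/fl mice, loxP sites flank exons 4 to 6 of *Pdk4*, which encodes a kinase that inhibits the pyruvate dehydrogenase complex. Pdk4SMKO mice carry the same alleles and the tamoxifen-inducible *Myh11*-Cre transgene, which acts in smooth muscle cells, and the study's methods describe tamoxifen for both genotypes. All 6 libraries, 3 per genotype, came from cells treated with Ang II. The labels give no dose or time for Ang II, while the study's methods describe 1 μM for 48 h in these cells. Libraries from untreated cells were not analysed here, so each difference below is one between genotypes under Ang II.

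The tissue factor pathway of blood clotting starts when tissue factor, the product of *F3*, binds factor VII, and TFPI, the product of *Tfpi*, blocks that complex. Thrombomodulin (*Thbd*) turns thrombin into an activator of protein C, an anticoagulant protease, which the protein C receptor EPCR (*Procr*) presents to thrombomodulin. Clots and matrix are then broken down by plasmin, which tPA (*Plat*) and uPA (*Plau*) cut from plasminogen. uPA works at the cell surface on its receptor uPAR (*Plaur*), and protease nexin-1 (*Serpine2*), a serpin, inhibits thrombin and both activators. Smooth muscle cells of the vessel wall are known to make tissue factor, tPA, uPA and several of these inhibitors.

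Each library held from 16526044 to 22481670 counted reads, and 3 counts, taken here as the floor of detection in a library, corresponded to between 0.132 and 0.227 CPM. CPM are counts divided by the library size, which was adjusted by TMM normalization, and scaled to 1e6 reads. Counting error alone is covered by this floor. The targeted gene *Pdk4* had 35.0 ± 3.07 CPM (SD, n = 3) in Pdk4fl/fl cells and 6.93 ± 2.11 (SD, n = 3) in Pdk4SMKO cells, 19.8% of the Pdk4fl/fl level. The call of a difference needed a Benjamini-Hochberg adjusted p below 0.05 in the quasi-likelihood test of edgeR, together with a change of 2-fold or more. Of the 14085 genes tested, 59.3% were called, 32.8% higher and 26.5% lower in Pdk4SMKO cells. With library size alone as the scaling, the called genes divided into 6184 higher and 2390 lower, in place of 4616 and 3733. The median log2 fold change of all tested genes was 0.12 with TMM, 0.33 with upper-quartile factors and 0.72 with library size alone. Between libraries of one genotype the correlation of log2 CPM across genes was at least 0.985, and between genotypes at most 0.781. The study describes the libraries of a genotype as biological replicates. Neither it nor the labels say whether each came from a separate animal or culture, so the p-values measure the spread between these libraries.

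Of the 8 members other than *Thbd*, 7 passed the filter on low counts. Of these 7, 3 were called (42.9%), beside 59.3% of all genes tested. *F3* and *Serpine2* rose and *Plat* fell. A further 3, *Tfpi*, *Plau* and *Plaur*, had an adjusted p under 0.05 with a fold change under 2, so that 6 of 7 lay under that p, where 79.1% of all genes tested did. In 6 of these 7 genes the genotypes did not overlap in CPM, an order found in 81.8% of all genes tested. These shares of the members were thus read against a background in which most genes differed. *Procr* was the tested member whose genotypes overlapped, and *Tfpi2* was the member with too few counts to test. The spans of the 9 genes overlapped those of 0 other rows of the table.

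**Figure D1:**
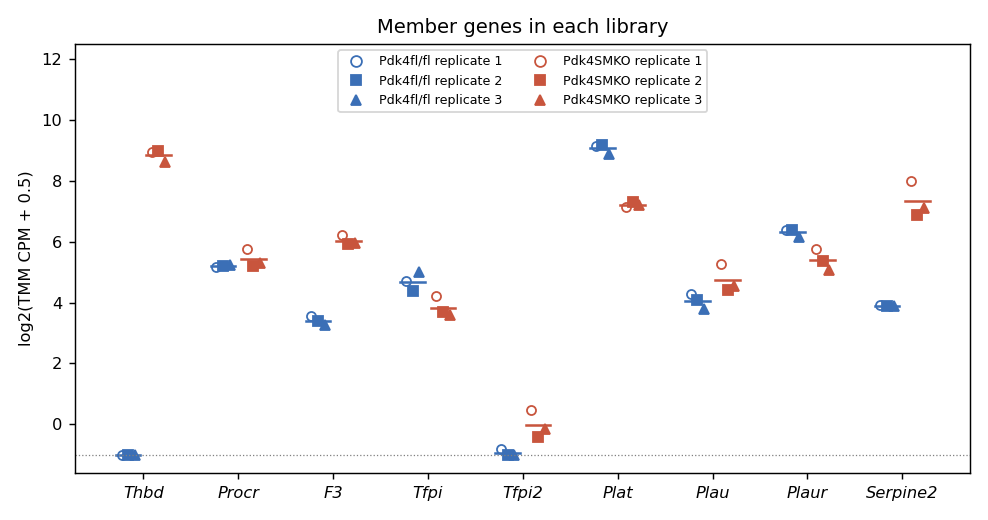
Level of each member as log2(CPM + 0.5), with 1 point per library and a line at the mean of the 3 libraries of a genotype. The dotted line marks 0 CPM, where *Thbd* lies in all 3 Pdk4fl/fl libraries, while its Pdk4SMKO libraries lie between 389.6 and 500.4 CPM.

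*Thbd* encodes thrombomodulin, the receptor that turns thrombin from a clotting enzyme into an activator of protein C, and it is known from endothelium and mesothelium among other cells. The gene (MGP_C57BL6NJ_G0027028) spans bases 157191956 to 157195678 of chromosome 2. All gene coordinates are those of the C57BL/6NJ assembly unless stated. It had 0 counts in each of the 3 Pdk4fl/fl libraries and 11322, 10056 and 7941 counts in the Pdk4SMKO libraries. These corresponded to 497, 500.4 and 389.6 CPM, or 462 ± 63.1 CPM (SD, n = 3). Every Pdk4SMKO library held a high level and no Pdk4fl/fl library held a read. Against the floor of 3 counts per library, *Thbd* was at least 2344-fold higher in Pdk4SMKO cells. Among 1204 genes with 0 counts in every Pdk4fl/fl library and at least 1 in every Pdk4SMKO library, *Thbd* ranked 2 by its lowest Pdk4SMKO library, and 28 of the 1204 reached 10 CPM in all 3. This rank restates the difference by which *Thbd* was chosen.

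The protein-coding genes closest to *Thbd* in their pattern were *Efemp1*, *Upk1b* and *Mark1*, by the Euclidean distance of log2(CPM + 0.5) over the 6 libraries (1.71, 2.14 and 2.36). *Efemp1*, which encodes the matrix protein fibulin-3, had 0 counts in the Pdk4fl/fl libraries and 19189, 17833 and 19380 in the Pdk4SMKO libraries. *Upk1b*, which encodes uroplakin 1b and stands in the list of mesothelial markers used below, had 2, 2 and 3 counts against 6842, 3469 and 3717. *Mark1*, which encodes a kinase of microtubule-associated proteins, had 0, 2 and 2 against 3436, 4510 and 3855. The level near 0 of all 3 in Pdk4fl/fl cells follows from their choice by distance to *Thbd*.

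The protein-coding neighbours of *Thbd* were looked up after its values were seen. *Thbd* lies on the minus strand, and the sides are given by coordinate. *Sstr4*, a somatostatin receptor gene 7690 bases away at lower coordinates, had 0 counts in each Pdk4fl/fl library and 4, 19 and 8 in the Pdk4SMKO libraries. *Cd93*, which lies 24692 bases from *Thbd* at higher coordinates and encodes a C-type lectin of the thrombomodulin family, had 1, 0 and 0 counts against 32, 14 and 9. Both neighbours were thus low in both genotypes, with more counts in every Pdk4SMKO library than in any Pdk4fl/fl library. Neither had enough counts to be tested, and among all genes tested the genotypes did not overlap in CPM in 81.8%.

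*Procr* (MGP_C57BL6NJ_G0027166, chromosome 2 from 165297804 to 165302148), which encodes the receptor that presents protein C to thrombomodulin, had 35.9, 36.3 and 36.9 CPM in Pdk4fl/fl cells. In the Pdk4SMKO libraries it had 54.3, 36.4 and 38.9 CPM. The Pdk4SMKO replicate 2 lay within the Pdk4fl/fl range and replicate 1 well above it, so the genotypes overlapped. The log2 fold change was 0.25 (95% interval from -0.11 to 0.61, edgeR adjusted p = 0.181), and without Pdk4SMKO replicate 1 it was 0.06 (adjusted p = 0.690). The adjusted p was 0.0269 with upper-quartile factors and 0.000971 with library size alone, both at a fold change under 2 (log2 0.46 and 0.86). Of this receptor pair, *Procr* was therefore detected in all libraries, while *Thbd* was undetected in one genotype.

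*F3* (MGP_C57BL6NJ_G0028249, chromosome 3 from 128415685 to 128427291), the gene of tissue factor, had 11.3, 10.0 and 9.01 CPM in the Pdk4fl/fl libraries. The Pdk4SMKO libraries had 73.4, 59.6 and 61.5 CPM. Every Pdk4SMKO library lay above the highest Pdk4fl/fl library, without overlap. The mean rose 6.40-fold, from 10.1 ± 1.17 to 64.8 ± 7.47 CPM (SD, n = 3 each), with a log2 fold change of 2.68 (SE 0.15, edgeR adjusted p = 1.5e-07). Between 2.59 and 2.76 remained with each library left out in turn.

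*Tfpi* (MGP_C57BL6NJ_G0026316, chromosome 2 from 87748663 to 87793518), whose product inhibits the complex of tissue factor and factor VIIa, had 25.4, 20.3 and 31.3 CPM in the Pdk4fl/fl libraries. It had 18.2, 12.4 and 11.4 CPM in the Pdk4SMKO libraries, all under the lowest Pdk4fl/fl library. The Pdk4SMKO mean was 54.6% of the Pdk4fl/fl mean, and the log2 fold change was -0.87 (95% interval from -1.36 to -0.37, edgeR adjusted p = 0.00446), short of a 2-fold change. It passed that limit without Pdk4fl/fl replicate 2 (adjusted p = 0.00373) or without Pdk4SMKO replicate 1 (log2 fold change -1.09), whereas with library size alone it was -0.26 (adjusted p = 0.307).

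*Tfpi2* (MGP_C57BL6NJ_G0030860, chromosome 6 from 723877 to 751234) encodes a related Kunitz-type inhibitor that is known to act on plasmin and other matrix proteases. It had 1, 0 and 0 counts in the Pdk4fl/fl libraries and 20, 5 and 8 in the Pdk4SMKO libraries, or 33 reads against 1. The ratio of the levels was 24.2, with an exact 95% interval of counting error from 4.05 to 985, and 14.9 without Pdk4SMKO replicate 1. Its counts were too low for the filter, and when the model was fitted to all genes it had an edgeR adjusted p of 0.00148, while the fitted size is not interpretable at these counts.

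For 6 of the 9 members, 9 promoter windows were found in a RefSeq table of the GRCm38.p6 build, each from 250 bases before to 50 bases after a start site. No window was found there for *Thbd*, *Plat* or *Plau*. The windows of *F3* and *Serpine2*, the members called higher, are shown so that their letters can be read beside the values. *F3* lies on the plus strand at chr3:121723287-121723586 and *Serpine2* on the minus strand at chr1:79858616-79858915 of that build, which is not the assembly of the counts. Capitals mark the letters searched for on both strands, and the sequences run 5′ to 3′.
F3: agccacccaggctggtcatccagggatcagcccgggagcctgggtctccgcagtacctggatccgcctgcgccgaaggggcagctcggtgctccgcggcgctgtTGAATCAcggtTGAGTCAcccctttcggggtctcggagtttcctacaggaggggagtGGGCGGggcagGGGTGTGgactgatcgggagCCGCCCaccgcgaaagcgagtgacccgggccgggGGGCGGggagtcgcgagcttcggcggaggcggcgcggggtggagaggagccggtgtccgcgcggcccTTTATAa
Serpine2: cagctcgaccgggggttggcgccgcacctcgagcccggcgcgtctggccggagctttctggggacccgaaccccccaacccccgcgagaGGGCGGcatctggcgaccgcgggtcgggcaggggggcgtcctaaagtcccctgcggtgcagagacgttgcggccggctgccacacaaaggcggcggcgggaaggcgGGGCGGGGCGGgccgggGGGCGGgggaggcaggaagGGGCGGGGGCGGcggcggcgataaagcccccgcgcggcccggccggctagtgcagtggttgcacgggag

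The *F3* window held the AP-1 letters TGANTCA at 2 places, starting at positions -146 and -135 from the start site, the GC box letters GGGCGG at 3 places, the KLF letters CACACCC at 1 place and the TATA letters TATAAA at 1 place, after the start site. In the *Serpine2* window GGGCGG stood at 6 places, of which those starting at -55 and -50 share a base, and the other letters searched were not in this window. Of the 32851 windows of the table, 7.81% held TGANTCA, 35.7% GGGCGG, 7.95% CACACCC and 13.6% TATAAA. The letters TGANTCA also stood in the windows of *Procr* and *Plaur*, which were not called, and in 1 of the 3 windows of *Tfpi2*. Likewise GGGCGG stood at 3 places in the window of *Plaur*, in both windows of *Tfpi* and at 2 places in 1 window of *Tfpi2*. The windows of *Tfpi* held CACGTG, the E-box letters, in 1 of 2 and no TGANTCA. Of all windows, 7.15% held CACGTG. The other letters searched were TGACGT (in 7.51% of all windows), ACGTG (19.6%), which CACGTG contains, and CATTCC (14.7%). A match describes the window and is not a measured site.

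*Serpine2* (MGP_C57BL6NJ_G0016599, chromosome 1 from 83704638 to 83787589), the gene of protease nexin-1, had 14.7, 14.3 and 14.2 CPM in the Pdk4fl/fl libraries. It had 254, 118 and 137 CPM in the Pdk4SMKO libraries. The Pdk4fl/fl libraries were nearly alike, while Pdk4SMKO replicate 1 held 1.98 times the mean of the other Pdk4SMKO libraries. The mean rose 11.8-fold, from 14.4 ± 0.306 to 170 ± 73.2 CPM (SD, n = 3 each), with a log2 fold change of 3.56 (SE 0.28, edgeR adjusted p = 1.1e-06). Without Pdk4SMKO replicate 1 it was 3.16.

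*Plat* (MGP_C57BL6NJ_G0033950, chromosome 8 from 21482094 to 21511448), the gene of tPA, had 572, 576 and 466 CPM in the Pdk4fl/fl libraries. The Pdk4SMKO libraries had 139, 156 and 146 CPM, all far under the lowest Pdk4fl/fl library. The mean fell from 538 ± 62.1 to 147 ± 8.51 CPM (SD, n = 3 each), 3.66-fold, with a log2 fold change of -1.87 (SE 0.13, edgeR adjusted p = 5.5e-07). *Plat* was the called member that fell, and it fell under every scaling tried, with a log2 fold change of -1.27 for library size alone.

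*Plau* (MGP_C57BL6NJ_G0021433, chromosome 14 from 14111785 to 14118508), the gene of uPA, had 18.9, 16.4 and 13.2 CPM in the Pdk4fl/fl libraries. It had 37.8, 20.9 and 22.8 CPM in the Pdk4SMKO libraries, of which replicate 1 was the highest and replicate 2 lay close above the Pdk4fl/fl range. The log2 fold change was 0.75 (95% interval from 0.22 to 1.28, edgeR adjusted p = 0.0147), short of a 2-fold change. It was 0.44 (adjusted p = 0.0492) without Pdk4SMKO replicate 1, and 1.36 with library size alone, where it was called. Both plasminogen activators therefore differed in the opposite direction in these fits, and the difference of their changes was not tested.

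*Plaur* (MGP_C57BL6NJ_G0032277, chromosome 7 from 23537135 to 23550346), the gene of the uPA receptor, had 82.6, 83.3 and 71.3 CPM in the Pdk4fl/fl libraries. In the Pdk4SMKO libraries it had 54.1, 41.1 and 33.3 CPM, all under the Pdk4fl/fl range. The log2 fold change was -0.88 (95% interval from -1.28 to -0.49, edgeR adjusted p = 0.00093), short of a 2-fold change. Without Pdk4SMKO replicate 1 it passed that limit (-1.08), and with library size alone it was -0.28 (adjusted p = 0.190). For *Tfpi*, *F3*, *Plat*, *Plau*, *Plaur* and *Serpine2*, an exact two-sided permutation test of the 6 libraries gave p = 0.1, the smallest p that 3 libraries against 3 allow, and for *Procr* it gave p = 0.2.

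**Figure D2:**
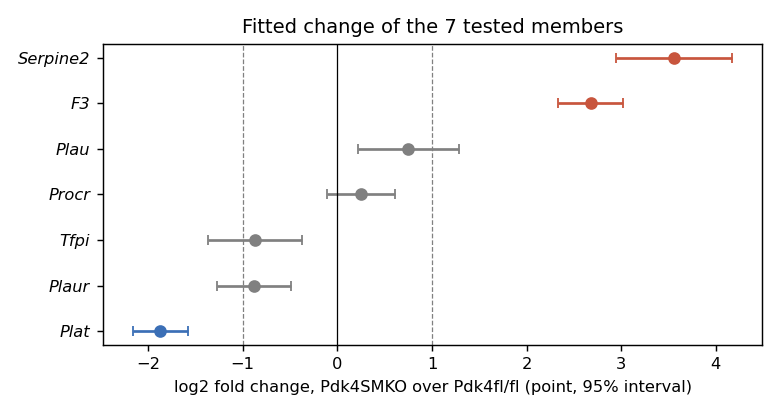
Fitted log2 fold change of the 7 tested members, Pdk4SMKO over Pdk4fl/fl, with 95% intervals; dashed lines mark a 2-fold change, red points are called higher, the blue point is called lower and grey points are not called. *Serpine2* (3.56) and *F3* (2.68) lie to the right of the lines and *Plat* (-1.87) to the left, while the interval of *Procr* spans 0.

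Levels of different genes were compared per length, as CPM per kilobase of the gene length given in the table. On this scale *Plat* was the most abundant member in Pdk4fl/fl cells (218 ± 25.1, SD, n = 3), followed by *Plaur* (30.2), *Procr* (17.9), *Plau* (6.89), *Tfpi* (4.70), *F3* (4.03) and *Serpine2* (1.74), with *Tfpi2* (0.0244) and *Thbd* (0) at the end. In this order the libraries of *Plau* and *Tfpi* overlapped, as did those of *Tfpi* and *F3*. In Pdk4SMKO cells *Thbd* led (124 ± 16.9, SD, n = 3), above *Plat* (59.5), *F3* (25.8), *Procr* (21.3), *Serpine2* (20.5), *Plaur* (16.4), *Plau* (11.6), *Tfpi* (2.57) and *Tfpi2* (0.557). There the libraries of each neighbouring pair from *F3* to *Plau* overlapped. *F3* nonetheless lay above *Plaur* and *Plau* in all its libraries, and *Procr* above *Plau*. The change in place of *Thbd* restates the difference by which it was chosen. Among the other members *Plat* was the most abundant in both genotypes.

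**Figure D3:**
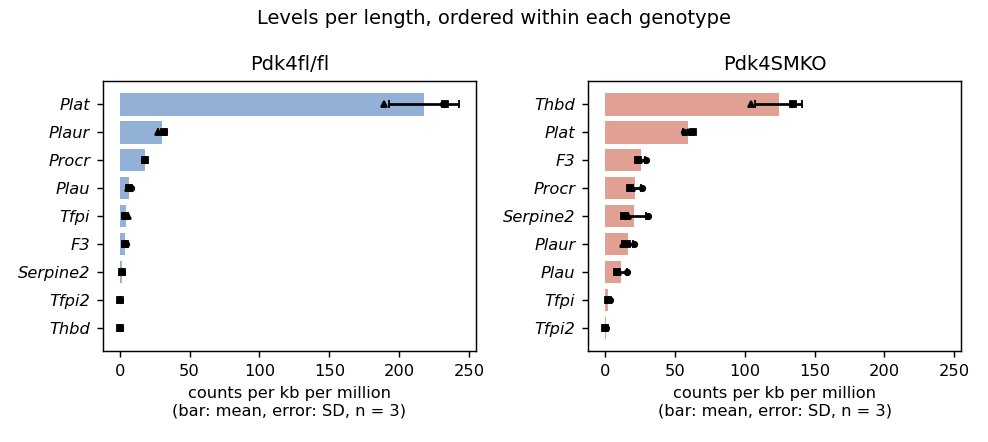
CPM per kilobase of each member, ordered within each genotype; bars are means of 3 libraries, error bars are SD and black points are libraries. *Plat* leads in Pdk4fl/fl cells (218) and *Thbd* in Pdk4SMKO cells (124).

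Ratios of these levels within a library do not depend on how libraries are scaled. They come from the same contrast as the values above and are given without a test. Transcripts of *F3* stood to those of its inhibitor *Tfpi* as 0.970, 1.08 and 0.625 to 1 in the Pdk4fl/fl libraries and as 8.76, 10.5 and 11.7 to 1 in the Pdk4SMKO libraries. The ratio of *Plat* to *Plau* was 28.8, 33.4 and 33.6 in Pdk4fl/fl cells and 3.49, 7.07 and 6.08 in Pdk4SMKO cells, so that *Plat* exceeded *Plau* in every library. For *Plau* over its receptor *Plaur* the ratios were 0.255, 0.220 and 0.206 against 0.780, 0.568 and 0.765. In none of these 3 ratios did the genotypes overlap. This follows from the single genes, since those of each pair differed in opposite directions without overlap. Of all genes tested, 81.8% did not overlap in CPM, and no share was computed for ratios of other gene pairs.

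**Figure D4:**
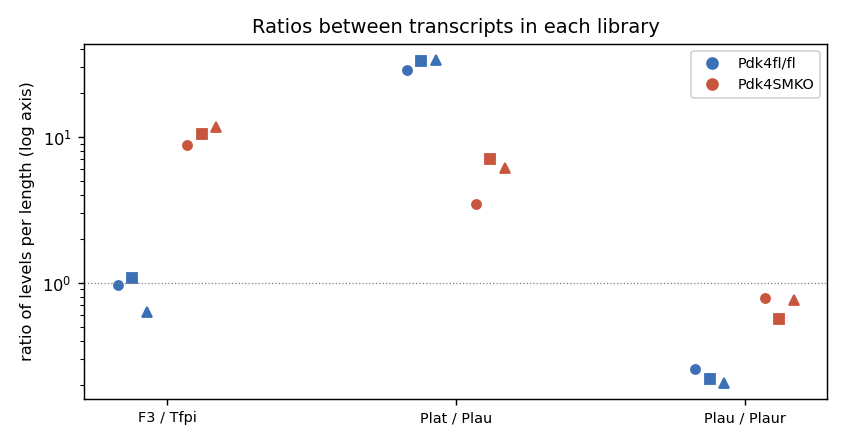
Ratios of levels per length within each library, on a log axis, with 3 libraries per genotype and a dotted line at 1. *F3* over *Tfpi* lies between 0.625 and 1.08 in Pdk4fl/fl libraries and between 8.76 and 11.7 in Pdk4SMKO libraries.

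Within the Pdk4SMKO genotype, 7 of the 9 members were highest in replicate 1, a library that was the highest of the 3 for 37.5% of all genes tested. Its level over the mean of replicates 2 and 3 was 2.74 for *Tfpi2*, 1.98 for *Serpine2*, 1.73 for *Plau*, 1.53 for *Tfpi*, 1.46 for *Plaur*, 1.44 for *Procr* and 1.21 for *F3*. *Thbd* (1.12) and *Plat* (0.921) were highest in replicate 2. The median of this ratio over all genes tested was 0.991. The summed level of the mesothelial markers was also highest in this library, at 1378 CPM against 753 and 855, as was that of the macrophage markers, at 30.5 CPM against 13.5 and 9.71. Their part in the members' values was not tested.

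Of a list of 54 further genes of coagulation, anticoagulation, plasminogen activation and thrombin reception, 53 were found in the table and 26 were tested. In Pdk4SMKO cells 12 of these were higher and 4 lower, 61.5% of the genes tested, beside 59.3% of all genes. Of the called genes *F5*, *F13a1*, *Kng1*, *Serping1* and *Serpinf2* lay at or under the floor in 1 genotype. They passed the filter only through the other genotype, which favours a call. With at least 10 counts in every library 9 were higher and 2 lower, beside 3165 and 2785 of all 11301 genes then tested. The median log2 fold change of the 26 genes was 0.80, beside 0.12 over all genes tested. Setting the 5 genes at the floor to their bound could not move this median, because each stayed on its side of it. No count was found in any library for 11 genes, among them *Plg*, which encodes plasminogen, *F7* and *F10*, which encode the factors that tissue factor binds and activates, and the fibrinogen genes *Fga* and *Fgg*. *F2*, the prothrombin gene, and *Proc*, the protein C gene, had 1 count each over the 6 libraries. The genes named here, whose products are known from the liver, were therefore at or under the floor in both genotypes.

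Among clotting factors and cofactors, *F5*, the gene of factor V, had 0, 1 and 1 counts in the Pdk4fl/fl libraries and 1103, 1436 and 1207 in the Pdk4SMKO libraries. The ratio of its levels was 1375, with an exact interval of counting error from 380.3 to 11356. *F13a1*, the gene of the A subunit of factor XIII, and *Kng1*, the kininogen gene, had 0 counts in Pdk4fl/fl cells and were at least 5.77-fold and at least 13.4-fold higher. *Pros1*, which encodes protein S, the cofactor of activated protein C, rose from 21.7 ± 3.01 to 175 ± 47.1 CPM (SD, n = 3 each; log2 fold change 3.01, edgeR adjusted p = 6.5e-07). *Gas6*, which encodes a related vitamin K-dependent ligand, had a log2 fold change of 0.64 (adjusted p = 0.00529), short of 2-fold, and was called with library size alone (1.24). *Vwf*, the gene of von Willebrand factor, was lower by the threshold (log2 fold change -1.13) at 2.07 against 0.947 CPM. Its call was lost with upper-quartile factors (-0.91), with library size alone (-0.53), and without Pdk4fl/fl replicate 1 (-0.97) or Pdk4SMKO replicate 2 (-0.94).

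Genes of the vitamin K cycle, which modifies clotting factors and protein S, differed in direction. *Ggcx*, the carboxylase gene, was lower (log2 fold change -1.04) and *Vkorc1l1*, a gene of vitamin K epoxide reduction, rose (1.87). The call of *Ggcx* was lost with upper-quartile factors (-0.83), library size alone (-0.43), no filter on low counts (-0.99), at least 10 counts in every library (-0.94) or without Pdk4SMKO replicate 1 (-0.99, each short of the 2-fold limit). The thrombin receptor gene *F2r* rose 2.53-fold, from 162 ± 9.05 to 411 ± 27.3 CPM (SD, n = 3 each; log2 fold change 1.34, edgeR adjusted p = 2.4e-06). *F2rl1*, the gene of the related receptor PAR2, had a log2 fold change of 0.93, short of 2-fold, and was called with upper-quartile factors (1.15), with library size alone (1.54), with at least 10 counts in every library (1.03) and without Pdk4SMKO replicate 2 (1.15).

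Among serpins, *Serping1*, the gene of the C1 inhibitor, which also inhibits plasma kallikrein, had 2, 0 and 1 counts against 928, 2599 and 2157, a ratio of 1391 (exact interval of counting error from 476 to 6746). *Serpini1*, the gene of neuroserpin, an inhibitor of tPA, rose (log2 fold change 1.66). *Serpinf2*, the gene of the plasmin inhibitor α2-antiplasmin, had 87, 123 and 37 counts against 1, 2 and 0. It was 112 times as abundant in Pdk4fl/fl cells (exact interval of counting error from 37.9 to 548). The serpin genes of the wider list thus differed in both directions.

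Among genes of the cell surface and matrix, *Lrp1*, an endocytic receptor that clears complexes of proteases and serpins, rose (log2 fold change 1.99), as did *Mrc2* (2.40), an endocytic collagen receptor that associates with uPAR, and *Thbs1* (3.00), which encodes thrombospondin-1. *S100a10*, whose product binds annexin A2 and plasminogen at the cell surface, fell from 402 ± 125 to 101.3 ± 11.9 CPM (SD, n = 3 each; log2 fold change -1.99, edgeR adjusted p = 9.5e-06). Its partner *Anxa2* had a log2 fold change of -0.76 (adjusted p = 0.00114), short of 2-fold, and of -0.14 (adjusted p = 0.416) with library size alone. The row of *Lrp1* carries no symbol in the table and was taken by the protein that its description names.

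**Figure D5:**
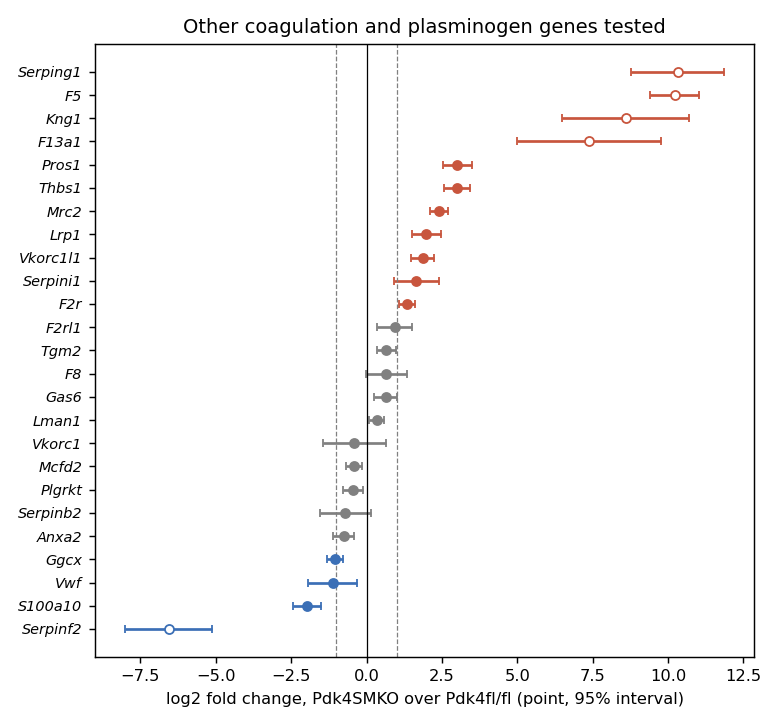
Fitted log2 fold change, Pdk4SMKO over Pdk4fl/fl, with 95% intervals, of 25 tested genes of the wider list; red points are called higher, blue points called lower, grey points not called, and open points mark genes at or under 3 counts in every library of a genotype, whose fitted size is not interpretable. Of the genes plotted, 11 are called higher and 4 lower.

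In bulk RNA, fewer cells of a type and less RNA per cell cannot be told apart. The counts of called markers that follow stand beside 59.3% of all genes tested, 32.8% higher and 26.5% lower. All 8 smooth muscle markers were called, 5 higher, with *Acta2* (smooth muscle actin) at 233 against 701 CPM, and 3 lower, *Tagln* at 253 against 52.7 CPM, *Smtn* at 280.0 against 57.5 and *Cnn1* at 19.5 against 6.88. *Myh11*, the gene whose promoter drives the Cre, had 0.613 CPM in Pdk4fl/fl and 2.39 in Pdk4SMKO cells. The endothelial list, whose cells are known for *Thbd* and *Procr*, summed to between 19.3 and 27.5 CPM in Pdk4fl/fl and between 3.33 and 6.76 in Pdk4SMKO libraries. Of its 10 genes 4 were tested, and 3 of these were lower and 0 higher. *Cldn5* had 0 counts in all libraries, *Cdh5*, *Emcn* and *Tie1* were near 0, and *Kdr* was the most abundant. The mesothelial list summed to between 74.3 and 99.99 CPM in Pdk4fl/fl and between 753 and 1378 in Pdk4SMKO libraries, with 8 of 9 genes higher, *Krt8* untested, with *Krt19* the most abundant in Pdk4fl/fl cells (79.2 CPM) and *Msln* in Pdk4SMKO cells (6.43 against 410.0 CPM). Fibroblast markers had 4 of 7 genes higher and 1 lower, *Dpt*, led by *Col1a1*, at 634 to 867 summed CPM against 5429 to 7443. The call of *Dpt* was lost with upper-quartile factors, with library size alone, with both other filters, after thinning and without Pdk4fl/fl replicate 3 or Pdk4SMKO replicate 1. Macrophage markers had 5 of the 7 genes found higher, with *C1qa*, *C1qb*, *Adgre1* and *Tyrobp* at 0 in Pdk4fl/fl cells, and 1 lower, *Cd68*, and summed to between 21.4 and 38.0 CPM against 9.71 to 30.5. Platelet markers summed to at most 8.11 CPM, with *Itga2b* the most abundant, 1 gene higher and *Gp9* at 0 in all libraries. Liver markers summed to at most 2.01 CPM, with *Ttr* at 0. At or under the floor in every Pdk4fl/fl library lay 4 mesothelial and 5 macrophage markers, which could pass the filter only through Pdk4SMKO cells. With at least 10 counts in every library, 2 mesothelial and 0 macrophage markers were higher. The part of the listed cell types in the members' differences was not tested.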

How the data were processed

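RNA of MASMCs of 3 Pdk4fl/fl and 3 Pdk4SMKO samples had been sequenced as paired-end reads of 150 bases. The values are counts of reads for each gene, which the authors deposited as 1 table and which carry no normalization. The submitters' processing notes name the genome build GRCm39, whereas the identifiers and coordinates in the table are those of the C57BL/6NJ assembly. The study names NEBNext Ultra and the labels SMARTER for the library kit. The aligner, the counting program and the use of strand are not given in the sources used here. The deposited gene length was used for levels per length.

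Groups follow the genotype that the labels state. The tests were run with edgeR 4.0.16 under R 4.3.3 (filterByExpr, TMM, quasi-likelihood test on genotype, Benjamini-Hochberg over all 14085 genes tested), in place of the DESeq2 that the study names. DESeq2 1.42.0, limma 3.58.1 (voom), other scalings and filters, thinning to the smallest library, a replicate block and leaving out each library were alternatives. The fits were tested on simulated data. The members and lists were chosen with earlier results of these data known. Named genes were all members, *Pdk4*, called genes of the wider list with 9 fixed ones, the leading and absent cell markers, and the 3 genes most like *Thbd*. Promoters came from RefSeq. Column names of the table matched the sample titles. For 1 gene of the wider list, counted among its totals, values are not reported here.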

Additional observations from a re-analysis of the deposited data

How the results depend on the processing

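Most results kept their direction and their side of the threshold under the alternatives, and no log2 fold change of a tested member or of a named gene of the wider list reversed. The main exceptions follow, beside those given with single genes. In some of these settings fewer genes or libraries entered the fit, and the cause of the exceptions was not tested in any setting. With library size alone, 2390 genes were lower in all, 2 lower in the wider list of coagulation and plasminogen genes and 5 lower among the cell markers, in place of 3733, 4 and 8, and *Plau* was called (1.36). The bound for *Thbd* was 3573-fold with library size alone and 2715-fold with upper-quartile factors. The wider list had 2 lower genes with upper-quartile factors or at least 10 counts in every library, and 7 lower with no filter on low counts or no limit on the fold. With at least 10 counts in every library, 8 cell markers were higher in place of 23. Higher mesothelial markers then numbered 2 in place of 8 and macrophage markers 0 in place of 5. For smooth muscle there were 3 in place of 5, for fibroblasts 3 in place of 4 and for platelets 0 in place of 1. Among single marker lists, lower endothelial markers numbered 5 in place of 3 without Pdk4SMKO replicate 1, and 1 liver marker was called higher in place of 0 with DESeq2, with no filter and without Pdk4SMKO replicate 1 or any 1 Pdk4fl/fl library. With single libraries left out, the log2 fold change ranged from -1.09 to -0.71 for *Tfpi* and from -1.08 to -0.72 for *Plaur*. With DESeq2 *Tfpi2* had an adjusted p of 0.0089. The replicate numbers were not taken to pair the libraries, since the correlations of deviations of same-numbered libraries were 0.048, 0.095 and 0.23, and not every library correlated best with its own number. With the replicate block, 4577 genes were higher and 3704 lower, and the calls of the members did not change. Counts of 3 or fewer per library limit *Tfpi2*, and *Thbd* in Pdk4fl/fl cells.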
